A study of Rattus norvegicus with 12 samples.

Results

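The genes described here are heat shock factor 1 (Hsf1) and 9 chaperones or co-chaperones of the cytosol, namely Hspa1a, Hspa8, Hsph1, Hsp90aa1, Hsp90ab1, Hspb1, Dnajb1, Dnaja1 and Bag3. They were taken by symbol from the platform annotation, as every probe set that names one of them, which gave 16 probe sets for 10 genes among 14219 genes named on the array. Of these 16 probe sets 4 also name another gene: 1 of the 2 for Hspa1a also names Hspa1b, the only one for Hspa8 also names Haus8l2, and both for Hsp90aa1 also name Hsp90aa1-ps17. Signals of these 4 cannot be assigned to 1 gene. The arrays held renal cortex RNA of male rats, 1 array per kidney graft, from 6 ABCC2-/- grafts, deficient in the export pump MRP2, and 6 wildtype grafts, and every recipient was wild-type. The sources used here do not give the rat strain, the time after transplantation, the animals' age or whether each graft had its own donor. The p-values therefore cover only the differences among these grafts, part of which may be technical. The values were deposited probe set intensities on a linear scale, called signals below.

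Cells answer denatured protein with the heat shock response. HSF1 is held inactive by chaperones in unstressed cells. When unfolded protein draws those chaperones away, HSF1 forms trimers and binds heat shock elements, repeats of the letters GAA and TTC, in the promoters of chaperone genes. Its activity is set mainly by trimer formation and by modification of the protein, so the level of its mRNA is not a measure of it. HSP70 proteins bind unfolded stretches with the help of J-domain partners that stimulate their ATPase, and of exchange factors that release ADP, while HSP90 matures kinases and steroid receptors. In kidney, inducible HSP70 and HSP27 are known to rise in tubules after ischemia.

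Promoter sequence was available for 8 of the 10 genes, in RefSeq windows on GRCr8 that run from 250 bases before to 50 bases after each gene's start. Hsf1 and Hsp90aa1 did not match a window. A pair of adjoining units of a heat shock element, spelled GAANNTTC or TTCNNGAA and searched on both strands, occurred in 6 of the 8 windows, against 15.9% of all 33469 windows. The 3-unit form, in which GAANNTTC is followed by NNGAA or TTCNNGAA by NNTTC, occurred in 3 of the 8, those of Hspa8, Hsph1 and Dnaja1, against 0.798% of all windows. Each 3-unit match also counts as overlapping pairs. No match lay in the windows of Hspa1a and Hsp90ab1, which says only that these letters are not in those 300 bases. The 250 bases before the start are shown, 5′ to 3′ on the gene's strand with matches in capitals, for 4 genes. Hsph1 (chr12:10427118-10427367, plus strand) and Dnajb1 (chr19:41431142-41431391, minus strand) varied together between grafts by 1 probe set of each. Bag3 (chr1:192533210-192533459, plus strand) varied with Hsf1, and Hspa8 (chr8:50080264-50080513, plus strand) is the constitutive member with 2 matches of the 3-unit form.
Hsph1: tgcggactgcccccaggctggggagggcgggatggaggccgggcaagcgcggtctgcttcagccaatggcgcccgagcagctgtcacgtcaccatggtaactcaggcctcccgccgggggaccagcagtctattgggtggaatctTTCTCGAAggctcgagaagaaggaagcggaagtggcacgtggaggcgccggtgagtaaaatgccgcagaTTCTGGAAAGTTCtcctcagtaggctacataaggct
Dnajb1: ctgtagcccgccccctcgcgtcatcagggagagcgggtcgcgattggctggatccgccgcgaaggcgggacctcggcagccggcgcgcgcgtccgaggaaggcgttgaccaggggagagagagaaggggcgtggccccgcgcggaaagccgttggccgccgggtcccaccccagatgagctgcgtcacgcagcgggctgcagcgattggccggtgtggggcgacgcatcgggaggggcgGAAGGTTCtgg
Bag3: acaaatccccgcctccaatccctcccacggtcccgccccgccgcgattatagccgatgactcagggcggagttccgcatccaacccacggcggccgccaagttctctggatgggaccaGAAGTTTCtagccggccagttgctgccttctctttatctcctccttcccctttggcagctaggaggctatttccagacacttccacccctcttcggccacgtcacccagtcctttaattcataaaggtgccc
Hspa8: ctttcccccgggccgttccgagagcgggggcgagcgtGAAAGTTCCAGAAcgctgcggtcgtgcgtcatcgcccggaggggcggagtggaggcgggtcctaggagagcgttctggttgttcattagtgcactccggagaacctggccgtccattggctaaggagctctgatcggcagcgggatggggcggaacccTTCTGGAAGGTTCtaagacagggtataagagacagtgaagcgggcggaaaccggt
In Hsph1 the 3-unit match began 36 bases before the start, and in Hspa8 the matches began 213 and 55 bases before it. The pairs nearest before the start began 11 bases from it in Dnajb1 and 132 in Bag3. A match is a description of letters and not evidence of binding.

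Some measures of the whole array bear on every value that follows. Abcc2, which encodes MRP2, had a signal of 0.141 ± 0.0594 in ABCC2-/- grafts and 0.899 ± 0.0746 in wildtype grafts (SD, n = 6 each). The 12 control probe sets for bacterial poly-A transcripts, which are added to the RNA before it is labelled, averaged 6.57-fold higher on the ABCC2-/- arrays, between 4.16-fold and 9.40-fold, and none of the 12 overlapped between genotypes. For the dap 3′ control the signals were 7.45 to 10.2 on ABCC2-/- arrays and 0.936 to 2.04 on wildtype arrays. The 9 hybridisation controls, added after labelling, differed by 1.08-fold. The sources used here do not say how the arrays were divided for labelling, so a difference in labelling and a difference in genotype cannot be told apart for any gene described. The arrays were also split by listing order into the last 3 listed of each genotype (array set 2) and the first 3 listed (array set 1). What the sets stand for is not labelled, so whether the split is technical is not known. Over all 12 arrays the hybridisation controls kept the sets apart only narrowly, with mean log2 signals of 3.155 to 3.98 in array set 2 and 2.87 to 3.153 in array set 1. The Gapdh and actin 3′ to 5′ ratios, the median signal and the scaling constant of the arrays overlapped between the sets. Within each genotype the constant did not overlap, at 114.4 to 123.8 in array set 2 and 135.3 to 160.1 in array set 1 for ABCC2-/- arrays, and at 103.8 to 138.7 and 168.7 to 197.1 for wildtype arrays in the same order of sets. Of 18625 probe sets tested, 30.3% differed between the sets at an adjusted p of 0.05 in limma with genotype in the fit, with 11.3% higher and 19.0% lower in array set 2. The Gapdh 3′ to 5′ ratio, which follows the length of the labelled RNA, was 1.28 to 1.36 in the ABCC2-/- grafts of array set 2, 1.66 to 1.93 in those of array set 1 and 1.64 to 1.88 in wildtype grafts. Markers of the tissue were present: 8 of 8 markers of the proximal tubule passed the level filter, with summed signals of 255 to 281 in ABCC2-/- and 259 to 324 in wildtype grafts, and 0 of 3 markers of the adrenal cortex did. In whole cortex, fewer cells of a type and less RNA per cell cannot be told apart.

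Hsf1 was the member with the clearest separation between genotypes, and it did not pass the test over all probe sets. All 16 probe sets of the 10 genes passed the level filter. By limma with Benjamini-Hochberg adjustment over all 18625 probe sets, 0 of the 16 passed an adjusted p of 0.05, where 0.0215% of all probe sets passed. At an unadjusted p under 0.05 there were 4, all with lower signal in ABCC2-/- grafts, where 7.98% of all probe sets were under it, 4.63% lower and 3.35% higher. They were those of Hsf1, both of Hspa1a and 1 of Dnajb1, and the exact two-sided permutation test over arrays also gave 4 under 0.05. Differences below are log2(ABCC2-/-) minus log2(wildtype), each with its standard error (SE) from limma. Of the 16 differences 12 were negative, with a median of -0.11, against a median of -0.023 over all probe sets, of which 54.6% were negative.

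**Figure D1:**
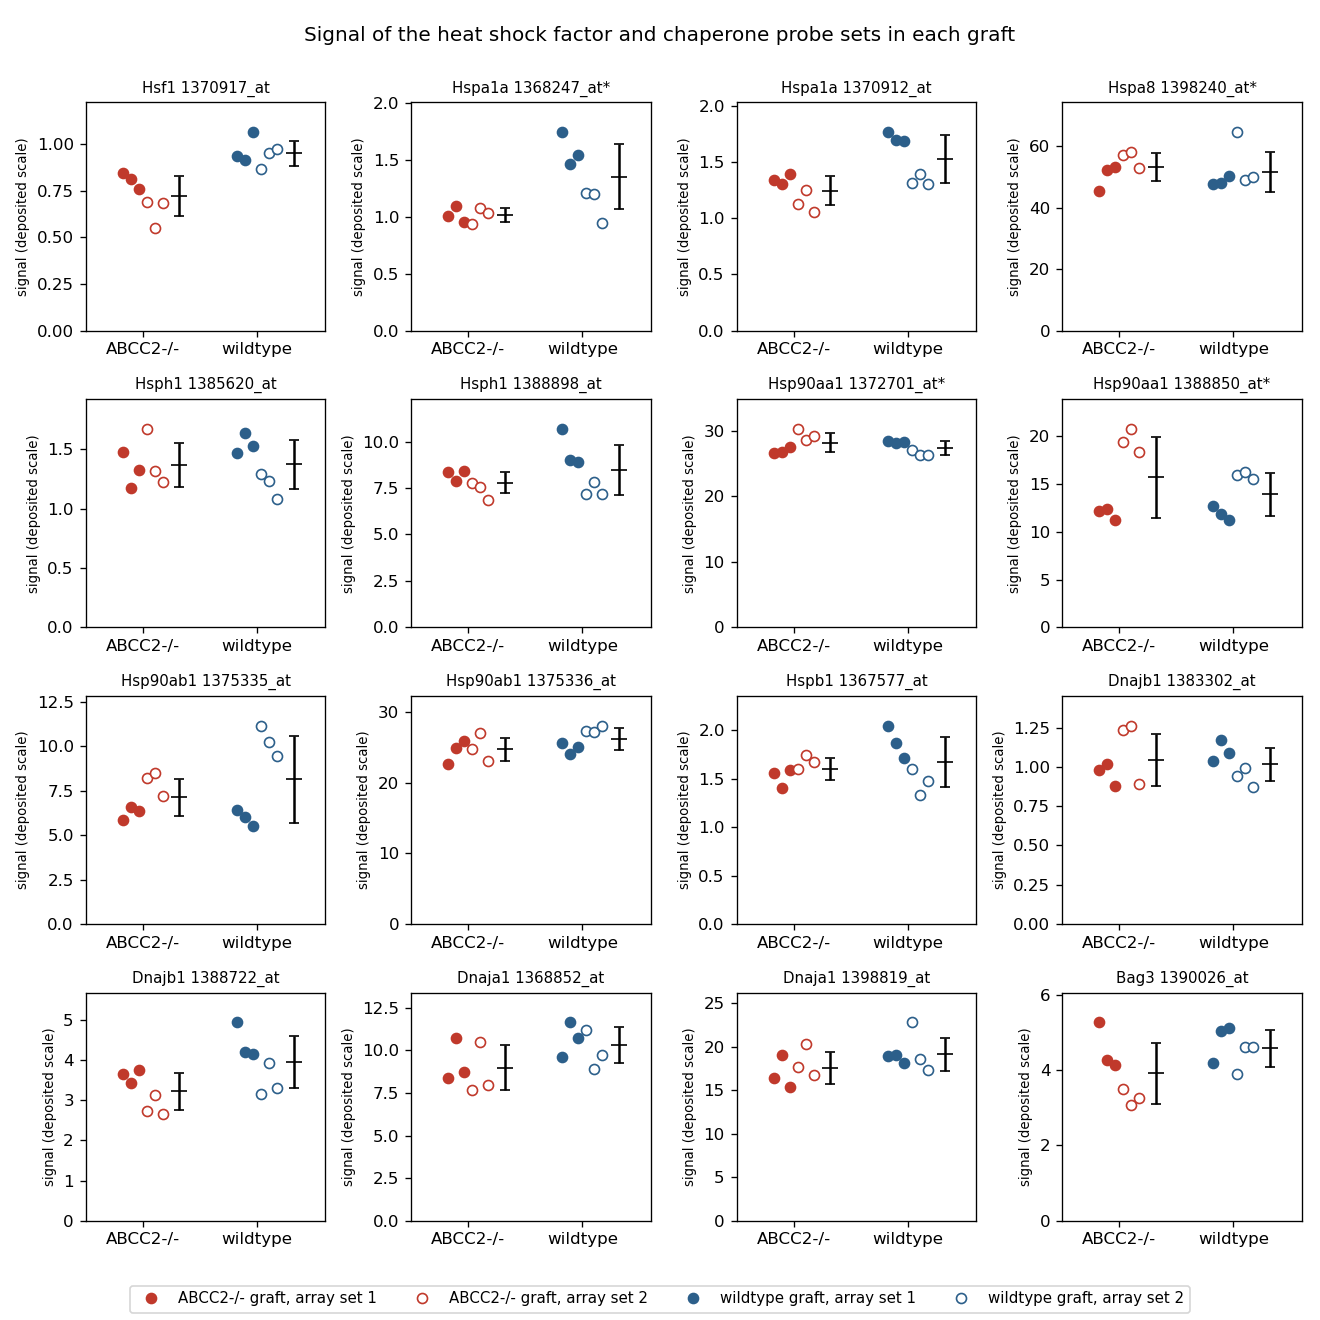
Signal of each of the 16 probe sets (linear deposited scale, axis from 0) in the 6 ABCC2-/- grafts, left, and the 6 wildtype grafts, right. Each point is 1 array, filled for array set 1 and open for array set 2, the bar gives the mean ± SD, and an asterisk marks a probe set that also names another gene. Hsf1 is the panel in which no ABCC2-/- array reaches the wildtype range, and in 1388850_at of Hsp90aa1 and 1375335_at of Hsp90ab1 the open points lie above the filled ones in both genotypes.

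Hsf1, the transcription factor of the response, had signals of 0.549 to 0.845 (median 0.724) in ABCC2-/- grafts and 0.866 to 1.06 (median 0.946) in wildtype grafts. The groups did not overlap, which held for 0.435% of all probe sets, 0.274% lower and 0.161% higher. The means were 0.723 ± 0.107 and 0.951 ± 0.0665 (SD, n = 6 each; ABCC2-/- first), a 1.33-fold lower level in ABCC2-/- grafts with a 95% confidence interval of 1.12 to 1.57. The log2 difference was -0.41 (SE 0.11), the unadjusted exact permutation p was 0.00216, which is the smallest that 6 against 6 arrays can give, and the limma adjusted p was 0.606. Its p ranked 65 of 18625. By array set, the ABCC2-/- mean was 0.640 in array set 2 and 0.806 in array set 1, and the wildtype mean was 0.931 in array set 2 and 0.972 in array set 1. The wildtype arrays of the sets interleaved. The ABCC2-/- arrays of the sets did not overlap, at 0.549 to 0.688 in array set 2 and 0.760 to 0.845 in array set 1. The difference between sets over both genotypes, -0.20 on the log2 scale, did not pass (adjusted p = 0.134, limma). The genotype difference was -0.55 within array set 2 (adjusted p = 0.0518), where 6.59% of all probe sets passed an adjusted p of 0.05. Within array set 1 it was -0.27 (adjusted p = 0.419). With array set in the fit the adjusted p was 0.0613, where 112 of 18625 probe sets passed an adjusted p of 0.05. With the Gapdh ratio as a covariate the difference was -0.29 (adjusted p = 0.99985, limma). With the Gapdh ratio and array set in the fit it was -0.32 (adjusted p = 0.357, limma). The lowest signal, 0.549, belonged to ABCC2-/- replicate 10, which also had the lowest Gapdh ratio of the 12 arrays (1.28). All ABCC2-/- arrays of array set 2, the lowest for Hsf1, had Gapdh ratios of 1.28 to 1.36. Whether RNA quality has any part in the Hsf1 difference was not tested.

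Hspa1a, the stress-inducible HSP70, is measured by a pair of probe sets. By the set that names it alone, 1370912_at, signals were 1.06 to 1.40 (median 1.28) in ABCC2-/- grafts and 1.30 to 1.77 (median 1.54) in wildtype grafts. Of the 6 ABCC2-/- arrays 4 lay below the lowest wildtype array, and the other 2 lay within the wildtype range. The log2 difference was -0.29 (SE 0.11, adjusted p = 0.606, exact permutation p = 0.0303 unadjusted). The set shared with Hspa1b, 1368247_at, gave 0.939 to 1.10 in ABCC2-/- grafts and 0.952 to 1.75 in wildtype grafts, with a difference of -0.39 (SE 0.13, adjusted p = 0.606). The ABCC2-/- grafts were close together there, at 1.02 ± 0.0651, and the wildtype grafts spread, at 1.35 ± 0.286 (SD, n = 6 each). That spread followed the array sets, since the wildtype mean was 1.12 in array set 2 and 1.59 in array set 1, while the ABCC2-/- mean was 1.02 in both. The shared set accordingly had a difference of -0.14 within array set 2 and -0.64 within array set 1, and a test of the change between the sets gave an adjusted p of 0.138.

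Hspa8, the constitutive HSP70 of the cytosol, did not separate the genotypes. Signals of 1398240_at, which also names Haus8l2, were 45.4 to 58.2 (median 53.0) in ABCC2-/- grafts and 47.7 to 64.6 (median 49.4) in wildtype grafts. The difference was 0.047 (SE 0.09, adjusted p = 0.852), with a 95% confidence interval of the fold from 0.908 to 1.18. Its sign turned under median centring, quantile and cyclic loess normalization. The highest wildtype value, 64.6, was replicate 4, and the other 5 wildtype arrays lay between 47.7 and 50.5.

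Hsph1, an HSP110 protein that exchanges nucleotide on HSP70, had overlapping groups by both of its probe sets. By 1388898_at the signals were 6.84 to 8.40 (median 7.81) in ABCC2-/- grafts and 7.19 to 10.7 (median 8.38) in wildtype grafts, with a difference of -0.11 (SE 0.10, adjusted p = 0.711) that was -0.039 without wildtype replicate 1. By the dimmer 1385620_at they were 1.17 to 1.67 in ABCC2-/- and 1.08 to 1.64 in wildtype grafts, with a difference of -0.0031 (SE 0.12) that had opposite signs in the array sets, at 0.22 in array set 2 and -0.22 in array set 1. Bag3, a co-chaperone that releases HSP70 clients and links them to autophagy, had 3.06 to 5.27 (median 3.81) in ABCC2-/- grafts and 3.89 to 5.13 (median 4.61) in wildtype grafts. Its difference was -0.24 (SE 0.12, adjusted p = 0.628). The highest and the lowest Bag3 signals of all 12 arrays were both in ABCC2-/- grafts, in replicates 5 and 10. All 3 ABCC2-/- arrays of array set 2, at 3.06 to 3.50, lay below every other array. Within array set 2 the difference was -0.42 (adjusted p = 0.0311), where 6.59% of all probe sets passed, and within array set 1 it was -0.074 (adjusted p = 0.834), and the test of the change between sets gave an adjusted p of 0.260. With the Gapdh ratio as a covariate over all arrays the Bag3 difference was -0.082 (adjusted p = 1.00).

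J-domain partners of HSP70 were mixed. Dnajb1, the main HSP40 induced by heat shock, had signals of 2.64 to 3.74 (median 3.28) by 1388722_at in ABCC2-/- grafts and 3.16 to 4.94 (median 4.04) in wildtype grafts. All 6 ABCC2-/- arrays were below the wildtype mean and 3 were below the wildtype minimum. The difference was -0.29 (SE 0.12, adjusted p = 0.614), and it was -0.28 within array set 2 and -0.30 within array set 1. The dimmer Dnajb1 set, 1383302_at, did not follow it, at 0.880 to 1.26 in ABCC2-/- and 0.870 to 1.17 in wildtype grafts, with a difference of 0.031 (SE 0.12). Its sign turned under median centring, so the Dnajb1 value rests on 1 of its 2 probe sets. Dnaja1, a J-domain protein of the other main class, had differences of -0.12 (SE 0.09) by 1398819_at and -0.20 (SE 0.10) by 1368852_at, with adjusted p of 0.658 and 0.627. Its signals by 1398819_at were 15.3 to 20.3 in ABCC2-/- and 17.3 to 22.8 in wildtype grafts, and both of its sets kept a negative sign in all 28 alternatives run.

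For each HSP90 gene 1 of its 2 probe sets, the dimmer, differed between the array sets, and neither gene passed the test between genotypes. Hsp90aa1 encodes the inducible and Hsp90ab1 the constitutive cytosolic HSP90. By 1388850_at, shared with Hsp90aa1-ps17, Hsp90aa1 signals were 11.2 to 20.8 (median 15.4) in ABCC2-/- grafts and 11.2 to 16.2 (median 14.1) in wildtype grafts, with a difference of 0.15 (SE 0.16, adjusted p = 0.747). Array set 2 gave 15.5 to 20.8 and array set 1 gave 11.2 to 12.7, so the sets did not overlap and differed by 0.56 on the log2 scale (SE 0.06, adjusted p = 2.47e-05, limma with genotype in the fit). The brighter set, 1372701_at, also shared, held 26.7 to 30.3 in ABCC2-/- and 26.2 to 28.4 in wildtype grafts, with a difference of 0.039 (SE 0.07), and its sign turned under median centring and quantile normalization. Its difference between array sets was 0.015 (SE 0.05, adjusted p = 0.853).

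Hsp90ab1 by 1375335_at had 5.84 to 8.47 (median 6.89) in ABCC2-/- grafts and 5.51 to 11.2 (median 7.93) in wildtype grafts. Here too the array sets did not overlap, with 7.18 to 11.2 in array set 2 and 5.51 to 6.59 in array set 1 (log2 difference 0.56, SE 0.08, limma adjusted p = 0.000162). The 3 wildtype arrays of array set 2 lay above all others. The genotype difference was -0.15 (SE 0.17, adjusted p = 0.756) over all arrays and ranged from -0.25 without wildtype replicate 9 to -0.047 without wildtype replicate 4. It was -0.37 within array set 2 (adjusted p = 0.0374) and 0.069 within array set 1 (adjusted p = 0.777). By 1375336_at, the brighter set, the signals were 22.6 to 27.0 in ABCC2-/- and 24.1 to 28.1 in wildtype grafts, with a difference of -0.086 (SE 0.07) between genotypes and 0.087 (SE 0.05, adjusted p = 0.238) between array sets. Within array set 2, with 3 grafts of each genotype, Hsp90aa1 by 1388850_at was higher (0.29, adjusted p = 0.0415) and Hsp90ab1 by 1375335_at was lower in ABCC2-/- grafts, where 6.59% of all probe sets passed, on arrays whose Gapdh ratios were 1.28 to 1.36 in ABCC2-/- and 1.64 to 1.88 in wildtype grafts. With the Gapdh ratio as a covariate over all arrays the Hsp90aa1 difference was -0.13 (adjusted p = 1.00).

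Hspb1, the small heat shock protein also called HSP27, which holds unfolding proteins and guards actin filaments, had signals of 1.41 to 1.75 (median 1.59) in ABCC2-/- grafts and 1.33 to 2.05 (median 1.66) in wildtype grafts. The ABCC2-/- range lay inside the wildtype range. The difference was -0.056 (SE 0.11, adjusted p = 0.855), and it was 0.19 within array set 2 and -0.30 within array set 1. Its sign turned under cyclic loess. The test of the change between sets gave an adjusted p of 0.0919 and an unadjusted p of 0.00440.

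Over the 16 probe sets, 6 differed between the array sets at an adjusted p of 0.05, against 30.3% of all probe sets. Of these, 1388850_at of Hsp90aa1 and 1375335_at of Hsp90ab1 were higher in array set 2. Those lower in array set 2 were Hspa1a by 1370912_at (-0.30), Hsph1 by 1388898_at (-0.26), Dnajb1 by 1388722_at (-0.35) and Bag3 (-0.30), with adjusted p between 0.00184 and 0.0181. A change of the genotype difference between the array sets was tested as an interaction, chosen after seeing the data, and 0 of the 16 passed an adjusted p of 0.05, where 2.54% of all probe sets passed. At an unadjusted p under 0.05 there were 8 of the 16, where 18.2% of all probe sets were under it.

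**Figure D2:**
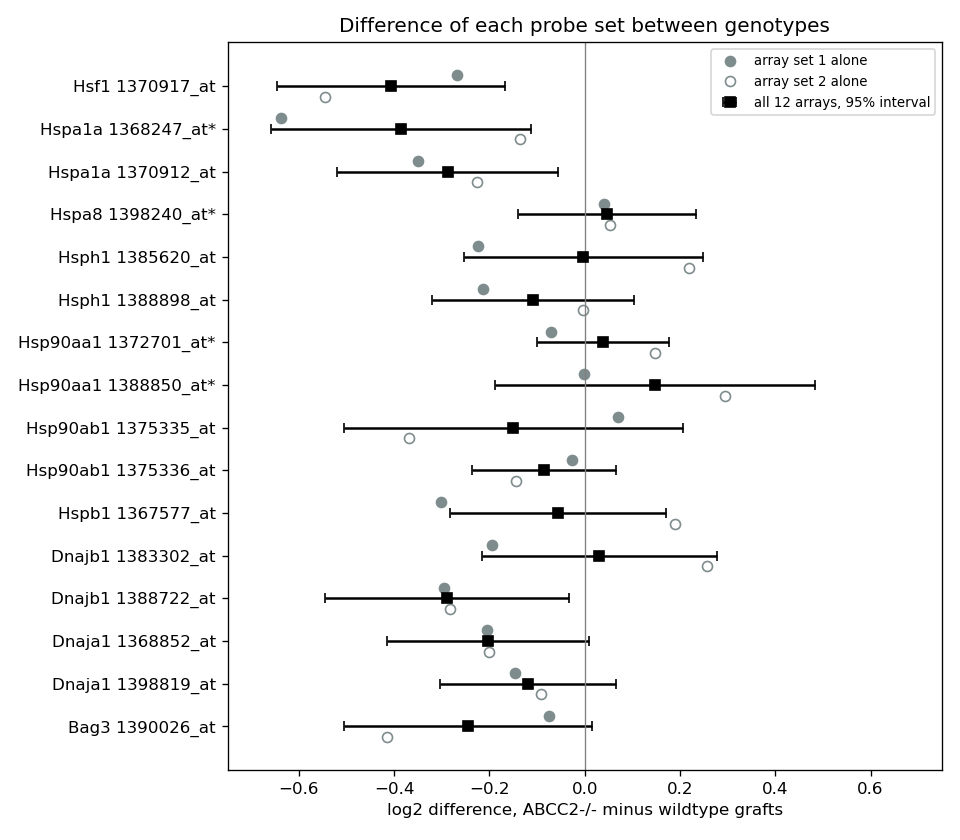
Log2 difference, ABCC2-/- minus wildtype grafts, of each probe set over all 12 arrays (squares, with the 95% confidence interval of the limma fit) and within array set 1 (filled) and array set 2 (open), with 3 grafts of each genotype. The intervals of Hsf1, both Hspa1a sets and Dnajb1 1388722_at lie left of 0. Hspb1, Hsph1 1385620_at, Dnajb1 1383302_at, both Hsp90aa1 sets and Hsp90ab1 1375335_at have opposite signs in the array sets. For Hsp90aa1 1388850_at the array set 1 point lies next to 0.

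Between grafts of the same genotype, 3 of the inducible chaperones varied together by 1 probe set each. After the genotype means were removed, Pearson's r over the 12 arrays was 0.94 between Hspa1a 1370912_at and Dnajb1 1388722_at, 0.91 between Hspa1a and Hsph1 1388898_at, and 0.90 between Hsph1 and Dnajb1 (Spearman's rho 0.94, 0.95 and 0.94). Part of this is shared by array set, in which all 3 were lower in array set 2. With the mean of each genotype in each array set removed, r was 0.84, 0.66 and 0.81 for the same pairs. By these probe sets wildtype replicate 1 was the highest array in all 3 genes, at 1.77 for Hspa1a, 4.94 for Dnajb1 and 10.7 for Hsph1. ABCC2-/- replicate 14 was the lowest by them, at 1.06, 2.64 and 6.84. The other sets of Dnajb1 and Hsph1 were highest in ABCC2-/- replicates 10 and 3. By the shared Hspa1a set, 1368247_at, r was 0.63 with Dnajb1 1388722_at and 0.75 with Hsph1 1388898_at. With the array set means removed as well, these were 0.38 and 0.27. The values of 0.94, 0.91 and 0.90 are the highest among the 120 pairs of member probe sets. They are given as a description of arrays that differ in scaling constant and array set. Other sets followed Hspa1a 1370912_at less, with genotype means removed. There r was 0.50 for Hsph1 1385620_at, 0.28 for Dnajb1 1383302_at, 0.51 for Bag3 and 0.50 for Hspb1. For Hsp90aa1 it was 0.034 by 1372701_at and -0.77 by 1388850_at. With the set means removed too, r turned to 0.52 for Hsp90aa1 1388850_at and to -0.25 for Bag3. It was then 0.15 for Hsph1 1385620_at, 0.52 for Dnajb1 1383302_at, 0.23 for Hspb1 and -0.20 for Hsp90aa1 1372701_at.

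**Figure D3:**
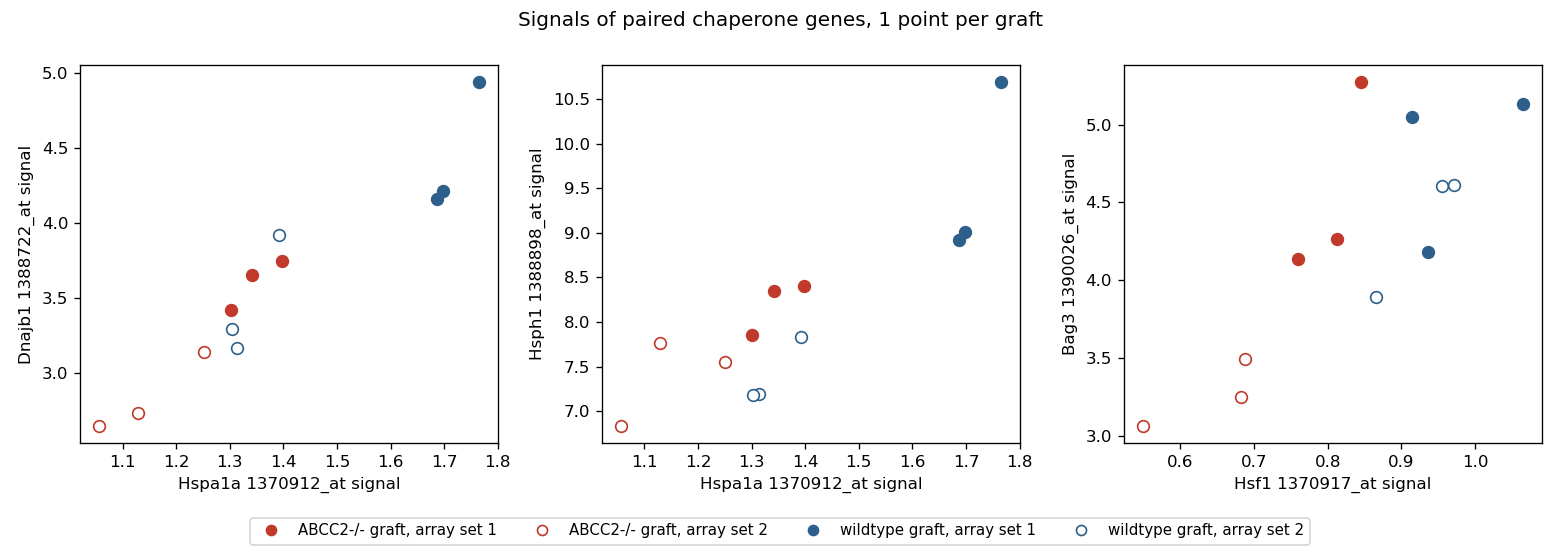
Signals of Dnajb1 and of Hsph1 against Hspa1a, and of Bag3 against Hsf1, on the linear deposited scale, 1 point per graft, red for ABCC2-/- and blue for wildtype, filled for array set 1 and open for array set 2. In the first panel the points run from ABCC2-/- replicate 14 (1.06, 2.64) to wildtype replicate 1 (1.77, 4.94). In the third panel the ABCC2-/- points lie left of the wildtype points.

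For Hsf1 the highest r was with Bag3, at 0.86 (Spearman's rho 0.92), and at 0.64 with the array set means removed as well. With Hspa1a 1370912_at it was 0.34, and its sign turned to -0.65 with the set means removed. With Hsp90aa1 1388850_at it was -0.77, and -0.47 with the set means removed. The constitutive genes Hspa8 and Hsp90ab1 (1375335_at) had r of 0.65, and 0.62 with the set means removed, and Hspa8 and Dnaja1 (1398819_at) had 0.69 and 0.66. Spearman's rho, with genotype means removed, was 0.52 and 0.46 for these pairs. Wildtype replicate 4 was the highest array for Hspa8 (64.6), Hsp90ab1 1375335_at (11.2) and Dnaja1 1398819_at (22.8), and its part in these values was not tested. Hspa8 and Bag3 ran opposite, at -0.71 and -0.63. The probe sets of 1 gene did not always follow each other: r was 0.71 for the Hspa1a pair, 0.71 for Hsp90ab1, 0.61 for Hsph1, 0.60 for Dnaja1, 0.31 for Hsp90aa1 and 0.12 for Dnajb1. With the set means removed as well, these values were 0.24, 0.56, 0.31, 0.77, -0.40 and 0.24 in the same order.

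**Figure D4:**
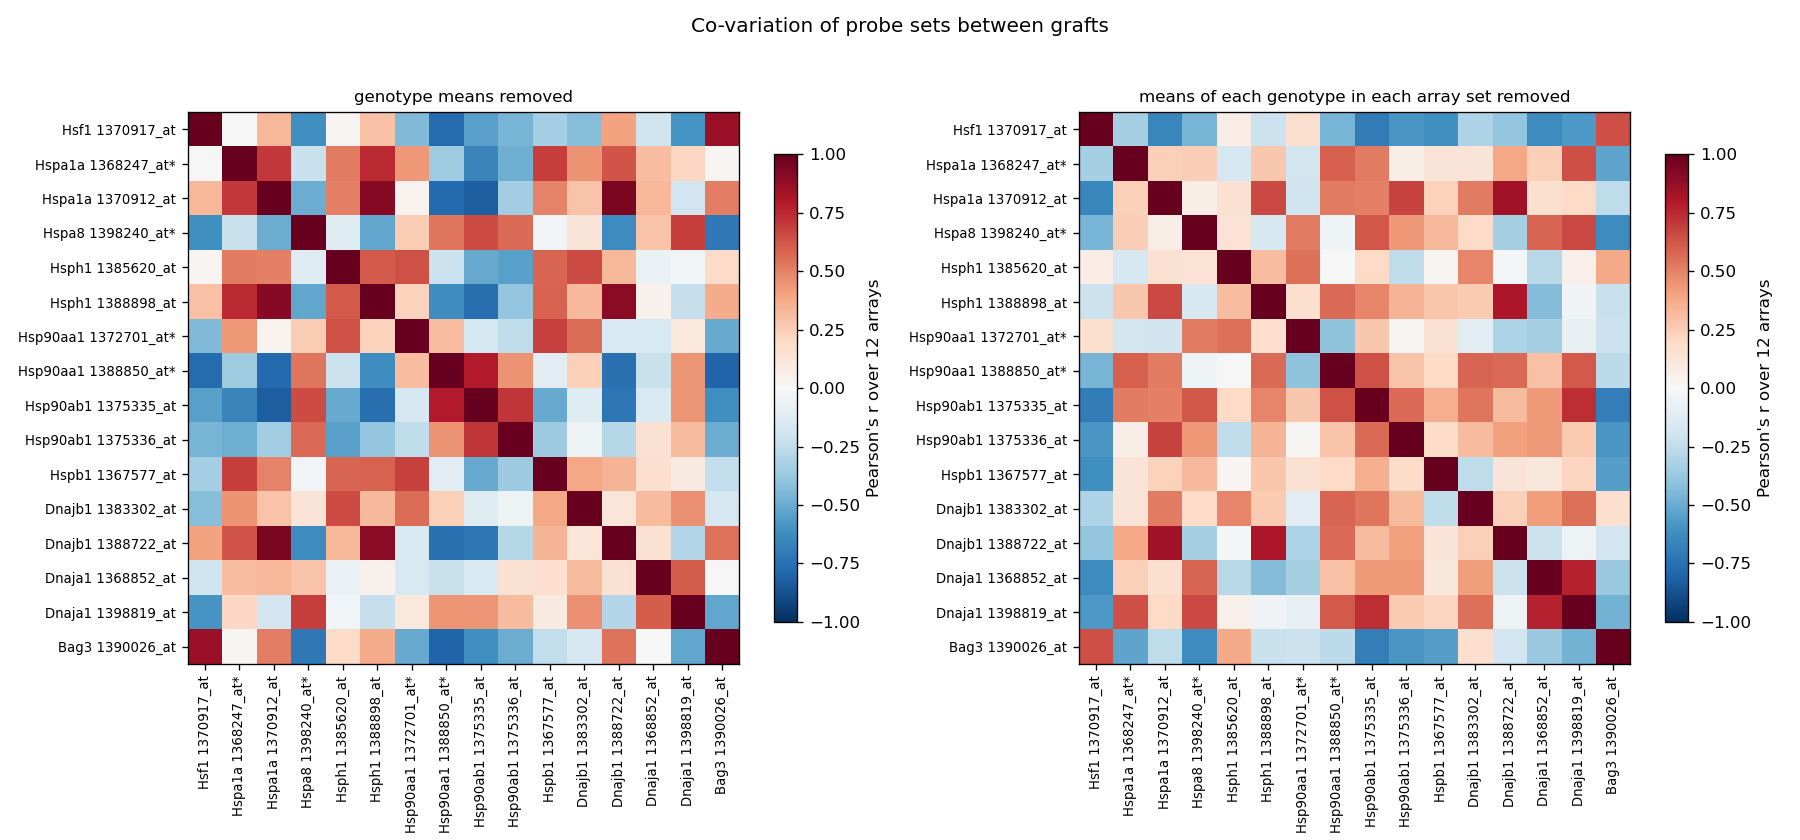
Pearson's r between all pairs of the 16 probe sets over 12 arrays, from -1 (blue) to 1 (red), with the genotype means removed (left) and with the means of each genotype in each array set removed (right). The red cells joining Hspa1a 1370912_at, Hsph1 1388898_at and Dnajb1 1388722_at and the cell joining Hsf1 and Bag3 remain above 0.6 on the right.

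Among 14102 tested probe sets that name 1 gene outside the list, those most like Hsf1 over the 12 arrays, with genotype means removed, were Cx3cl1 (r = 0.95), Slc29a2 (0.94) and Nxf1 (0.91), which encode a chemokine, a nucleoside transporter and an mRNA export receptor. With array set means removed too, r was 0.90, 0.90 and 0.79. For Hspa1a they were Rapgef5 (0.99), Zfp266 (0.98) and Srsf2 (0.97), a guanine nucleotide exchange factor, a zinc finger protein and a splicing factor, with r of 0.93, 0.87 and 0.85 after removal of the set means. They were picked as the highest of 14102 and are a description.

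The wider chaperone system was counted in lists, each gene by its brightest probe set. No gene of any list passed an adjusted p of 0.05 in limma, members included, and the background is 0.0215% of probe sets. Over all 10641 genes 58.6% of differences were negative, with a median of -0.040, and 564 genes were lower and 249 higher in ABCC2-/- grafts at an unadjusted p under 0.05. Of the 10 members 8 were negative, with a median of -0.11. Only Hsf1 among them had no overlap, which held for 48 of all genes.

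Among heat shock factors and their binders (5 tested, 3 negative), Hsbp1, which binds HSF1 trimers, had 0.14 (SE 0.10) and Hsf4 0.22 (SE 0.24). In the HSP70 and HSP110 families (10 tested, 8 negative, median -0.099), Hspa4, another HSP110 protein, had -0.20 (SE 0.08, unadjusted p = 0.0244 in limma). Its signals were 3.30 to 4.25 in ABCC2-/- and 4.17 to 4.91 in wildtype grafts, and Hspa2 had -0.24 (SE 0.27), which was -0.51 without ABCC2-/- replicate 9 and -0.090 without ABCC2-/- replicate 5. Of HSP90 and its co-chaperones 15 were tested and 9 were negative (median -0.065), with the ubiquitin ligase Stub1 at -0.16 (SE 0.09) and the cyclophilin Ppid at 0.13 (SE 0.09).

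J-domain proteins were the list with the most negative share when members were counted, 10 of 12 with a median of -0.15, against 58.6% of all genes. Without the 2 members in it, 8 of 10 were negative, with a median of -0.11. The HSP70 and HSP110 families without members had 6 of 7 negative, so the J-domain list did not lead there. Dnajb4 had -0.21 (SE 0.09), with 2.46 to 3.00 in ABCC2-/- and 2.78 to 3.73 in wildtype grafts, and Dnajb5 had -0.43 (SE 0.19), with adjusted p of 0.614 each. Of the small heat shock proteins 5 were tested and 2 were negative (median 0.12). Cryab, the αB-crystallin that pairs with Hspb1, had 0.57 (SE 0.30), with signals of 4.99 ± 2.37 in ABCC2-/- and 3.40 ± 1.88 in wildtype grafts (SD, n = 6 each), and Hspb6 had -0.25 (SE 0.13). The Cryab groups overlapped, and its difference was -0.014 within array set 2 and 1.16 within array set 1 (adjusted p = 0.287, limma). Without ABCC2-/- replicate 9 it was 0.37. In the BAG family 3 of 6 were negative, with Bag6 at -0.21 (SE 0.14) and Bag5 at -0.15 (SE 0.13).

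The last lists hold chaperones outside the cytosolic HSP70 and HSP90 systems. Of the CCT chaperonin and prefoldin 13 were tested and 8 were negative (median -0.0096), with Tcp1 at -0.17 (SE 0.12) and Pfdn5 at 0.17 (SE 0.12). Of 7 mitochondrial chaperones 4 were negative (median -0.11), with Hspa9, the HSP70 of the matrix, at -0.23 (SE 0.11) and Trap1, its HSP90, at -0.21 (SE 0.09). Of 13 chaperones of the endoplasmic reticulum 10 were negative (median -0.11), with Hspa5 (BiP) at -0.26 (SE 0.12) and Dnajb11 at -0.21 (SE 0.09). Hspa5 signals were 14.1 to 20.5 in ABCC2-/- and 16.4 to 28.0 in wildtype grafts, and the groups overlapped.

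**Figure D5:**
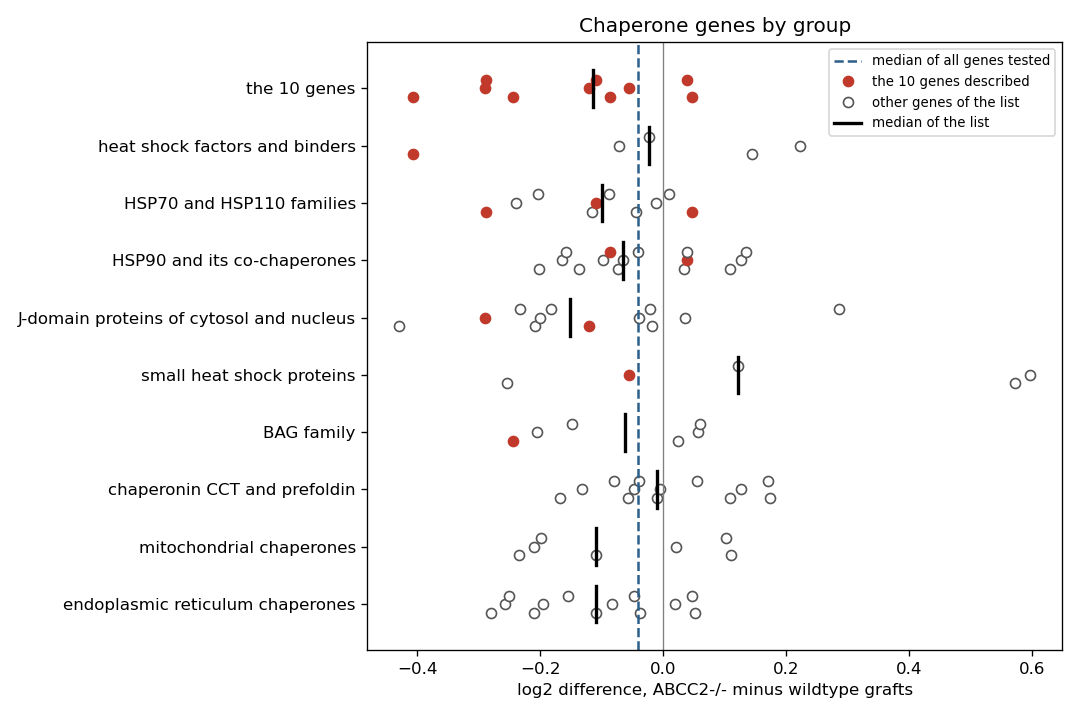
Log2 difference, ABCC2-/- minus wildtype grafts, of the tested genes of each chaperone list (1 point per gene by its brightest probe set, red for the 10 genes described), with the median of each list (black bar) and of all 10641 genes (dashed line, -0.040). With members counted, J-domain proteins have the lowest median (-0.15) and small heat shock proteins the highest (0.12). Without members the J-domain median was -0.11, as in the mitochondrial and endoplasmic reticulum lists.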

How the data were processed

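The deposited intensity values are probe set signals on a linear scale from 3′ expression arrays labelled with biotin, 1 per graft. The submitters' processing notes name MAS5 and GCOS but no version. On each array the deposited intensities were multiples of 1 step, as if signals with 1 decimal had been divided by a single factor, 103.8 to 197.1 over the arrays (within 0.02 of a step for 400 low values per array). The lowest deposited value, 0.01, holds 3.56% of all.

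A floor at the pooled 20th percentile (0.0694) preceded the log2. The 57 control probe sets were left out, and of the other 31042 those whose mean log2 reached the 40th percentile (-2.53), 18625, were tested in limma 3.58.1 (R 4.3.3, lmFit, eBayes with trend) with genotype as factor and Benjamini-Hochberg adjustment over all. No further normalization was made. Single probe sets were compared by exact permutation over 924 splits. The fit was tested on simulated data. Alternatives changed the floor, filter, normalization, variance model, weights, array set, Gapdh ratio and single arrays.

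All members were named, and in each list the genes past the threshold or else the 2 non-members of lowest p. The genes like Hsf1 and Hspa1a were the 3 of highest r. Members and lists were chosen with earlier results of these data known. The genes Hspa1b, Haus8l2 and Hsp90aa1-ps17 appear only as names on shared probe sets. The number of arrays, 6 per genotype, limits the precision.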

Additional observations from a re-analysis of the deposited data

Results flagged for a closer look

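The 12 poly-A control probe sets, left out of the limma fit, had a mean log2 signal 2.72 higher on ABCC2-/- than on wildtype arrays. The exact permutation test of that mean gave an unadjusted p of 0.00216. A difference in labelling and one in genotype cannot be told apart with these arrays.

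Single arrays stood apart from the other 5 of their genotype for 5 probe sets, among 70 combinations of probe set and genotype examined, where chance sets apart about 1 in 20. ABCC2-/- replicate 9 was high for the dim gene Hspa2, at 0.655 against 0.155 to 0.263 in the other ABCC2-/- grafts. Wildtype replicate 4 was high for Hspa8, at 64.6 against 47.7 to 50.5 in the other wildtype grafts, and for Dnaja1 by 1398819_at, at 22.8 against 17.3 to 19.0. It was low for Ppid, at 5.01 against 5.54 to 5.85. Wildtype replicate 6 was high for Hspa4, at 4.91 against 4.17 to 4.40. Wildtype replicate 4 also had the highest hybridisation controls of the 12 arrays (mean log2 signal 3.98), whose part in these values was not tested.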

How the results depend on the processing

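No member passed the threshold over all 12 arrays, in the 12 fits that left out 1 array or in the other alternatives, with the exception of array set 2 alone, where 3 member probe sets passed (Bag3, Hsp90aa1 1388850_at and Hsp90ab1 1375335_at). Over all probe sets 112 passed with array set as a block and 1227 in array set 2 alone, against 4. The Hsf1 difference was negative throughout, from -0.46 to -0.33 without single arrays and from -0.55 to -0.27 in the other alternatives, with adjusted p from 0.0518 to 1.00. The following signs turned, and the cause was not tested. Under median centring they were Hspa8 (-0.0094), Hsp90aa1 1372701_at (-0.018) and Dnajb1 1383302_at (-0.026). Under quantile normalization they were Hspa8 (-0.063), Hsp90aa1 1372701_at (-0.0011) and Hsph1 1385620_at (0.044), and under cyclic loess Hspa8 (-0.0019), Hsph1 1385620_at (0.052) and Hspb1 (0.0039). With array weights it was Dnajb1 1383302_at (-0.016). In array set 1 alone they were Hsp90aa1 1372701_at (-0.070) and 1388850_at (-0.0017), Hsp90ab1 1375335_at (0.069), Dnajb1 1383302_at (-0.20), Hspa2 (0.042), Ppid (-0.011), Bag6 (0.027) and Pfdn5 (-0.021). In array set 2 alone they were Hsph1 1385620_at (0.22), Hspb1 (0.19), Hsf4 (-0.071), Stub1 (0.015) and Cryab (-0.014). With the Gapdh ratio they were Hsp90aa1 1388850_at (-0.13), Dnajb1 1383302_at (-0.069), Bag6 (0.032) and Pfdn5 (-0.035), and with the Gapdh ratio and array set Hsp90aa1 1372701_at (-0.023), Dnajb1 1383302_at (-0.18) and Ppid (-0.0097). With 1 array left out Dnajb1 1383302_at ranged from -0.027 to 0.077, Hspb1 from -0.12 to 0.0054 and Hsph1 1385620_at from -0.070 to 0.050. Without changing sign, Hsp90ab1 1375335_at ranged from -0.25 to -0.047, Hspa2 from -0.51 to -0.090, Cryab from 0.37 to 0.81 and Bag3 from -0.34 to -0.18. No paired analysis was possible because the genotypes share 1 replicate number only.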
